A study of Rattus norvegicus with 9 samples.

Results

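Intranasal OXT was compared with vehicle in rats exposed to VPA before birth, on 6 of the 9 arrays of the study, with 1 array per rat: 3 OXT-treated VPA rats and 3 vehicle-treated VPA rats. The comparison covered 18166 genes, all those with a probe set (the probes that read 1 transcript) that carries a single gene symbol. A gene with several such probe sets was represented by the one with the highest mean level. Both groups were male Sprague-Dawley offspring of pregnant dams given 600 mg/kg VPA by mouth, a model of autism spectrum disorder. The OXT-treated group received 12 μg/kg/d OXT through the nose from postnatal day 21 to day 55, the other group received vehicle, and RNA of the dorsal hippocampus was taken on day 56, at 8 weeks of age. The 3 remaining arrays are from control rats, which had no VPA and no OXT. The dams of the control rats received water, and the array titles name these rats as vehicle-treated. Control levels are given beside those of the VPA groups only as a reference. The 6 VPA pups came from 3 dams and the control pups from 2, and the litter of each array is not given in the sources used here, so standard errors and p values treat pups as independent. No rat received OXT without VPA, so the comparison is of OXT on the background of VPA exposure.

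OXT is a neuropeptide of the hypothalamus that acts on a G protein-coupled receptor, and the hippocampus is a site where this receptor is known to be expressed in neurons. The genes that differed most here are known markers of the choroid plexus, the folded epithelium in the brain ventricles that secretes cerebrospinal fluid. A part of this epithelium lies along the edge of the hippocampus. Its cells are known for ion and water transport, for tight junctions that form a barrier between blood and fluid, and for secreted carriers and growth factors such as transthyretin. An array of whole tissue cannot tell fewer cells of a type from less RNA per cell.

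The values are log2 expression levels made by the authors. The arrays were alike in depth of signal, with median levels between 5.75 and 5.82, between 10955 and 11189 probe sets over a log2 level of 6.6, and a correlation of at least 0.9827 with each array of the same group. Of 20 measured markers of hippocampal principal cells, such as Prox1 and Calb1, 17 had a mean over 6.6 in at least 1 of both VPA groups. The mean level of this list was between 7.67 and 8.02 on all arrays. Vehicle-treated replicate 3 and OXT-treated replicate 3 had the lowest weights when array quality was estimated, 0.352 and 0.498. These 2 arrays also had the lowest mean level of oligodendrocyte and thalamus markers in their groups.

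The difference between the groups is given as the mean log2 level with OXT minus the mean with vehicle. A gene is described as called where the unadjusted p of limma was under 0.05, the difference exceeded 1.5-fold and the mean level exceeded 6.6 in at least 1 of both VPA groups. The thresholds are taken from the study, which asked for the fold criterion in vehicle-treated VPA rats relative to controls and for the level criterion in any of the 3 groups, so the calls here are not those of the study. With these criteria 23 genes were called, which is 0.127% of all genes. Of these, 22 were higher with OXT (0.121%) and 1 was lower (0.0055%). With the level of the controls counted as well, an alternative chosen after seeing the data, 23 genes were higher and 1 was lower, and the added gene was Cldn2. After Benjamini-Hochberg adjustment over all 30429 probe sets, 0 passed an adjusted p of 0.05 in limma, and the smallest adjusted p was 0.489, while 1419 probe sets (4.66%) had an unadjusted p under 0.05. Every call below is therefore a call at an unadjusted p, and the words higher and lower are used in this sense. No called gene had an adjusted p under 0.566 in limma.

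Without the criteria on fold and level, 559 genes (3.08%) had an unadjusted p under 0.05, 355 of them higher with OXT (1.95%) and 204 lower (1.12%). The shift was one-sided among the genes with a clear signal: of the 8487 genes over 6.6, 118 were higher (1.39%) and 34 were lower (0.401%). How far the counts over all genes differed by direction depended on the fit. They were 290 higher and 231 lower with the arrays centred on the median, and 428 and 194 with quantile normalization. Without OXT-treated replicate 1 they were 266 and 215. More than 2-fold differences were found in 11 of the called genes, all of them higher with OXT. In 15 of the 23 called genes the 3 OXT-treated arrays did not overlap with the 3 vehicle-treated arrays, a separation that was found in either direction in 5.30% of all genes. The called genes were picked by p and fold on these same arrays, so more separation among them is built in and is not independent evidence. The median difference over all genes was 0.02.

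**Figure D1:**
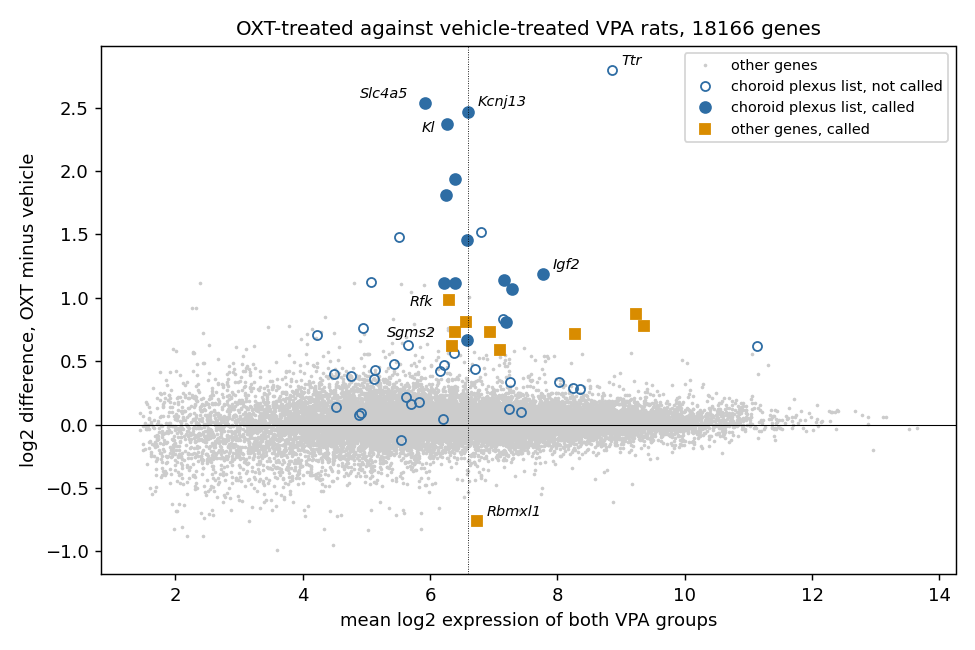
Log2 difference between OXT-treated and vehicle-treated VPA rats (y axis) against the mean log2 level of both groups (x axis) for 18166 genes, with 1 point per gene; filled circles are called genes of the choroid plexus list, open circles its other members and squares other called genes, and the dotted line is the level of 6.6. The called genes lie above 0 except Rbmxl1 at -0.76, and the 6 largest differences, Ttr, Slc4a5, Kcnj13, Kl, F5 and Clic6, belong to the choroid plexus list.

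Members of the choroid plexus list made up 13 of the 22 genes called higher with OXT. Among the OXT-treated rats, replicate 2 was lowest for Igf2, Igfbp2 and Slc13a4, and replicate 3 was lowest for the other called members. Of 45 measured choroid plexus markers, 24 were higher with OXT at an unadjusted p under 0.05 and 0 were lower, against 1.95% and 1.12% of all genes, and the median difference of the list was 0.56. In all, 44 of the 45 members had a difference above 0, with Krt18 at -0.12 as the exception. The list holds genes that the study picked from these same arrays, and it was compiled with these results known, so its direction is not independent evidence. The mean log2 level over the list was 7.42, 6.74 and 6.12 in OXT-treated rats 1, 2 and 3, compared with 5.96, 6.12 and 5.78 in vehicle-treated rats 1, 2 and 3 and with 6.66 to 7.22 in control rats. The OXT-treated rats thus ranged from above the controls down to the level of the highest vehicle-treated rat.

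Transporters and channels of the epithelium were among the genes with large differences. Slc4a5 encodes a sodium bicarbonate cotransporter of the membrane that faces the fluid. Its log2 level was 8.91, 7.14 and 5.50 in OXT-treated rats 1, 2 and 3 and 4.92, 5.33 and 3.69 in the vehicle-treated rats, with 7.10 to 8.30 in control rats. Every OXT-treated rat was above every vehicle-treated rat, and the lowest was only slightly above. The difference was 2.54 (SE 0.78), or 5.80-fold. For Kcnj13, the inward rectifier potassium channel Kir7.1, the levels were 9.67, 8.32 and 5.50 with OXT and 5.19, 5.83 and 5.07 with vehicle, a difference of 2.47 (SE 0.88). Replicates 1 and 2 were within or above the control range of 8.10 to 9.20, whereas replicate 3 lay among the vehicle-treated rats, so the groups overlapped.

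Clic6, a member of the intracellular chloride channel family, had levels of 8.79, 7.11 and 5.58 with OXT and 5.11, 5.97 and 4.97 with vehicle, a difference of 1.81 (SE 0.71). Here also replicate 3 of the OXT group lay below the highest vehicle-treated rat. The water channel Aqp1 was less variable, with 7.39, 6.69 and 6.64 against 6.33, 6.18 and 6.20, and a difference of 0.67 (SE 0.19). All 3 OXT-treated rats were above the vehicle-treated rats for this gene. The sulfate transporter Slc13a4 was 1.07 higher (SE 0.39), also without overlap, at 8.43, 7.47 and 7.55 against 6.90, 7.26 and 6.08. Among members that missed the criteria on fold or level, the potassium channel subunit Kcne2 was 0.56 higher (SE 0.24) and the cation channel Trpv4 0.48 higher (SE 0.14).

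To show what lies upstream of the genes with the largest called differences and of the called gene with the smallest p, Sgms2 (described below), the 300 bases around their annotated starts were taken from RefSeq on the rat assembly GRCr8. The stretches are chr4:117283044-117283343 on the plus strand for Slc4a5, chr9:95518937-95519236 on the minus strand for Kcnj13 and chr2:222590758-222591057 on the minus strand for Sgms2, each written 5′ to 3′ on the strand of the gene, with a TATAAA match in capitals.
Slc4a5: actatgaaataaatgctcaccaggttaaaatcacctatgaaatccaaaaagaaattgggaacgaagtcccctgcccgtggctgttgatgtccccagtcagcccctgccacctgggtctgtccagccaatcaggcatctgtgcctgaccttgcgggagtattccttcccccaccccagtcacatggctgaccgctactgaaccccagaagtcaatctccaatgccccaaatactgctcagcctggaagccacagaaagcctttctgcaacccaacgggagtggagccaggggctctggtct
Kcnj13: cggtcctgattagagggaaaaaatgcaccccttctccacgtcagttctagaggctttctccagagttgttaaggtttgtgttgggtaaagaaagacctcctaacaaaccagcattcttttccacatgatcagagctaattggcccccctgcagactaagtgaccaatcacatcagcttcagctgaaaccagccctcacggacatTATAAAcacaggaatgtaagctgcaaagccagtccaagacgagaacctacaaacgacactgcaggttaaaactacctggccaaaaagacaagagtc
Sgms2: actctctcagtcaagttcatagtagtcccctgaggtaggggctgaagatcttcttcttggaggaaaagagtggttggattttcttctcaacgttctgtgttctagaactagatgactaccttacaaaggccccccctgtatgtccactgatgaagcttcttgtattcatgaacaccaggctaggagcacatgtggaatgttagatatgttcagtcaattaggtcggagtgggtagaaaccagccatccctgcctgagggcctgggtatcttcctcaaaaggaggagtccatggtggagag
Only the stretch of Kcnj13 among these 3 holds TATAAA, the letters of a TATA box. Promoters were matched by symbol for 35 of the 45 measured choroid plexus genes, and TATAAA was found on either strand in 6 of them, compared with 14.2% of 33469 promoters of the same length. The letters TAATCC, the core bound by OTX factors, were found in 3 of the 35 and in 7.17% of all promoters, and the forkhead letters TGTTTAC in 1 of the 35 and in 3.78%. None of these motifs contains another, both strands were searched, and a match is a description of the sequence only.

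Receptors and secreted proteins of the choroid plexus were also called. Kl encodes klotho, a coreceptor for a fibroblast growth factor. The levels were 5.03, 5.04 and 5.17 with vehicle and 9.37, 7.95 and 5.02 with OXT, so that OXT-treated rat 3 had the lowest value of all 6 rats. OXT-treated rats 1 and 2 were within or above the control range of 7.84 to 8.99, and the vehicle-treated rats were below it. The difference was 2.37 (SE 0.90), or 5.16-fold. Folr1, the folate receptor that carries folate into cerebrospinal fluid, had levels of 7.91, 7.0 and 5.93 with OXT and 5.73, 5.86 and 5.89 with vehicle, a difference of 1.12 (SE 0.41). Although the groups did not overlap for Folr1, the third OXT-treated rat exceeded the highest vehicle-treated rat by less than the spread among the vehicle-treated rats.

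F5, coagulation factor V, was 1.94 higher (SE 0.75), with 9.02, 7.43 and 5.61 against 5.47, 5.73 and 5.04. Sostdc1, a secreted antagonist of BMP and Wnt signals, was 1.46 higher (SE 0.57), with 8.61, 7.33 and 5.98 against 5.6, 5.83 and 6.12. In both genes replicate 3 of the OXT group lay within the range of the vehicle-treated rats. The growth factor midkine, encoded by Mdk, was 0.81 higher (SE 0.31) without overlap. Tmem72, a membrane protein of this epithelium, was 1.12 higher (SE 0.41), also without overlap. The tight junction protein gene Cldn2 and the prolactin receptor gene Prlr were 1.48 (SE 0.60) and 1.12 (SE 0.40) higher but had mean levels under 6.6 in both VPA groups. Steap1, a membrane protein of the STEAP family, and Krt8, a keratin of epithelia, were also under this level. They had the smallest p values of the list, with differences of 0.71 (SE 0.16) and 0.63 (SE 0.15).

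Ttr, the most abundant marker of this epithelium, did not pass the test although its difference was the largest of all genes. Its levels were 12.83, 12.03 and 5.91 in OXT-treated rats 1, 2 and 3 and 6.82, 8.76 and 6.80 in vehicle-treated rats. The third OXT-treated rat was the lowest of all 9 rats, and the other OXT-treated rats were at or above the ends of the control range of 12.03 to 12.59. The difference was 2.80 with an SE of 1.55, and its unadjusted p was over 0.05. Enpp2, which encodes the secreted enzyme autotaxin, behaved alike, at 12.52, 11.68 and 10.14 against 10.87, 11.14 and 10.48, with a difference of 0.62 (SE 0.51). Mfrp, a membrane protein related to frizzled receptors, differed by 1.52 (SE 0.74). Otx2, the homeodomain factor that is known to specify this epithelium, differed by 0.33 (SE 0.90), and its lowest values in both VPA groups were those of replicate 3, 5.48 with OXT and 5.39 with vehicle. None of these 4 genes passed an unadjusted p of 0.05 with all arrays.

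**Figure D2:**
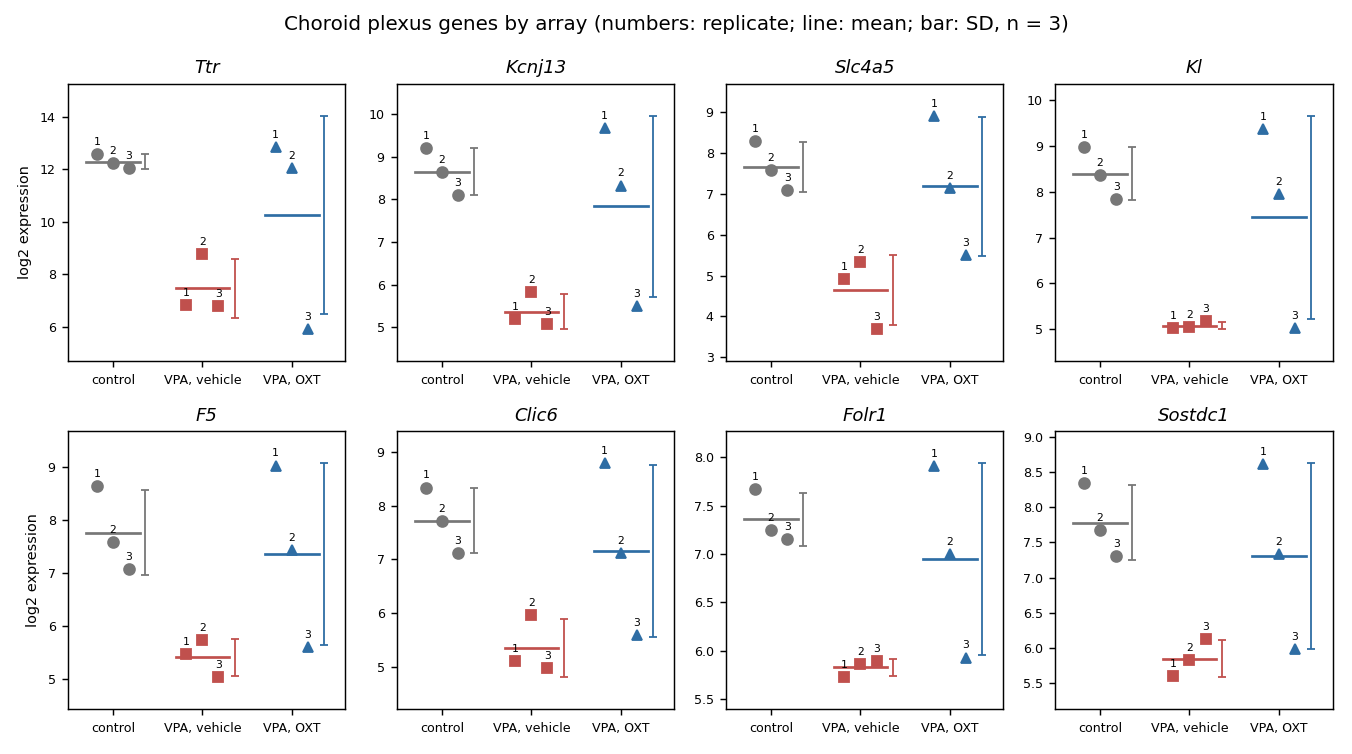
Log2 expression (y axis, separate scale for each gene) of 8 choroid plexus genes on all 9 arrays, in the order control, VPA with vehicle and VPA with OXT, with 1 point per rat numbered by replicate, horizontal lines at the group means and bars of 1 SD (n = 3 rats). In the OXT-treated group replicate 1 is highest and replicate 3 lowest for each of these genes, and replicate 3 of Ttr at 5.91 is below every other rat.

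The OXT-treated rats lay far apart in many genes of the choroid plexus. OXT-treated replicate 1 was the highest of the 3 in 35 of the 45 members, and replicate 3 the lowest in 29. Both replicates 1 and 2 were above all vehicle-treated rats in 30 members, and replicate 3 was so in 23. Of the 10 genes over 6.6 with the widest SD among the OXT-treated arrays, 8 are on the choroid plexus list, and the other two are Chrna3 and Tcf7l2. An SD over 1 was found among the OXT-treated arrays in 34 genes, compared with 26 among the vehicle-treated arrays and 2 among the controls, while the median SD over all genes was 0.118, 0.132 and 0.0954.

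The calls were repeated without OXT-treated replicate 3. The number of choroid plexus markers that were higher at an unadjusted p under 0.05 was then 29 of 45, against 2.17% of all genes in this fit, and the median difference of the list was 0.74. Ttr differed by 4.97 in this fit and then passed an unadjusted p of 0.05, Kcnj13 differed by 3.63 and Kl by 3.58. Leaving out OXT-treated replicate 1 instead left 9 of the 45 markers at an unadjusted p under 0.05, with a median of 0.38, and Kl then differed by 1.41 and Kcnj13 by 1.55. Leaving out a vehicle-treated rat left 15, 14 and 10 markers for replicates 1, 2 and 3. The whole count of genes called higher was 47 without OXT-treated replicate 3, 10 without OXT-treated replicate 1 and 11 without vehicle-treated replicate 1. The median of the list was above 0 in each of these fits, and its size depended on which OXT-treated rats were included.

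With the mean level of the choroid plexus list as a covariate in the model, 13 genes were called higher and 9 lower, and only 1 of the 23 genes was called as before, Rbmxl1. Part of the score is made of the same genes, and the score differed between the groups. Kl, F5, Clic6, Sostdc1, Mdk and Mmp2 had differences between -0.18 and -0.01 in this fit. Other genes, described below, kept most of their difference. Rfk, Retsat, Slc6a20a and Ogn differed by 1.0, 0.98, 0.87 and 0.72 and no longer had an unadjusted p under 0.05. Sgms2 and Gjb2 differed by 0.58 and 0.51 with an unadjusted p under 0.05, and missed the threshold of 1.5-fold. Igf2 and Igfbp2 differed by 0.73 and 0.59, and the other 8 genes by 0.02 to 0.37, all with an unadjusted p over 0.05.

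Few genes had a steady difference. Those called in all 6 fits that leave out 1 VPA rat, with no overlap of the arrays, were 5: Sgms2, Mmp14, Rfk, Igfbp2 and Igf2. Sgms2 encodes sphingomyelin synthase, which makes sphingomyelin of the plasma membrane. Its levels were 6.88, 6.91 and 6.50 with OXT and 5.95, 6.0 and 6.14 with vehicle, and the control range of 6.38 to 6.53 held the lowest OXT-treated rat and was above the vehicle-treated rats. The difference was 0.73 (SE 0.12), or 1.66-fold, with an adjusted p = 0.566 in limma, the smallest of the called genes. Replicate 3 of the OXT group again had the lowest level of its group and stayed above each vehicle-treated rat.

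Mmp14 encodes a matrix metalloproteinase of the cell membrane that is known to activate the proenzyme of Mmp2. It had levels of 7.41, 7.0 and 6.51 with OXT and 6.25, 6.42 and 5.83 with vehicle, while the 3 controls were at 6.82 to 6.90. The difference of 0.81 (SE 0.22) was 1.75-fold. Mmp2 itself, which degrades collagen, was 0.62 higher (SE 0.27) with overlap of the arrays, at 7.28, 6.58 and 6.09 against 5.87, 6.36 and 5.86. Both were the only members among 19 measured matrix metalloproteinases and inhibitors with an unadjusted p under 0.05. Of all genes, 1.95% were higher at this p, and the median of that list was 0.09.

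Rfk encodes riboflavin kinase, the enzyme that turns riboflavin into flavin mononucleotide. Its levels were 7.07, 6.53 and 6.78 with OXT and 6.46, 5.36 and 5.62 with vehicle, so that the groups were separated only narrowly. The difference was 0.98 (SE 0.31), or 1.97-fold, and the control range of 5.86 to 6.64 overlapped with both groups. The insulin-like growth factor Igf2, which the choroid plexus and meninges are known to secrete, had levels of 8.78, 7.82 and 8.52 with OXT and 7.26, 7.81 and 6.49 with vehicle. Replicates 2 of both groups were nearly equal. The difference of 1.19 (SE 0.36) was 2.28-fold and fell to 0.84 without vehicle-treated replicate 3. Its binding protein gene Igfbp2 was at 8.18, 7.32 and 7.71 against 6.85, 7.13 and 5.81, a difference of 1.14 (SE 0.35), or 0.75 without vehicle-treated replicate 3. Both Igf2 and Igfbp2 were higher in OXT-treated replicate 3 than in replicate 2. In the insulin-like growth factor system they were the 2 genes of 15 measured with an unadjusted p under 0.05, against 1.95% higher among all genes. Igf1 differed by 0.21 (SE 0.10) and the receptor gene Igf1r by -0.05.

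Small but uniform differences stood out by their p values instead of their size. Trappc1, a subunit of a complex that tethers transport vesicles, had the smallest p of all genes in limma (adjusted p = 0.489). It was at 10.28, 10.23 and 10.31 with OXT and 9.73, 9.88 and 9.75 with vehicle, a difference of 0.49 (SE 0.07), with all 3 controls at 10.05. Gjb2, which encodes connexin 26 of gap junctions, was called at 7.48, 7.30 and 7.40 against 6.76, 6.83 and 6.83, with 6.30 to 6.74 in controls. The difference of 0.59 (SE 0.11) lay at the threshold of 1.5-fold, and 3 of the 6 fits that leave out a rat called it. Both VPA groups were above the controls for Gjb2, with the OXT-treated rats highest.

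Other genes without overlap and with differences under 1.5-fold were chosen for mention after their values were seen. The cortexin gene Ctxn2 was 0.58 higher (SE 0.15), the clathrin adaptor gene Dab2 0.51 higher (SE 0.11) and Ppp1r1b 0.35 higher (SE 0.09). Ppp1r1b encodes DARPP-32, a phosphatase inhibitor of neurons that receive dopamine, and its vehicle-treated rats were at 7.42, 7.42 and 7.41 against 7.90, 7.65 and 7.76 with OXT. Fau, which encodes a ubiquitin-like protein fused to a ribosomal protein, was 0.54 higher (SE 0.16).

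**Figure D3:**
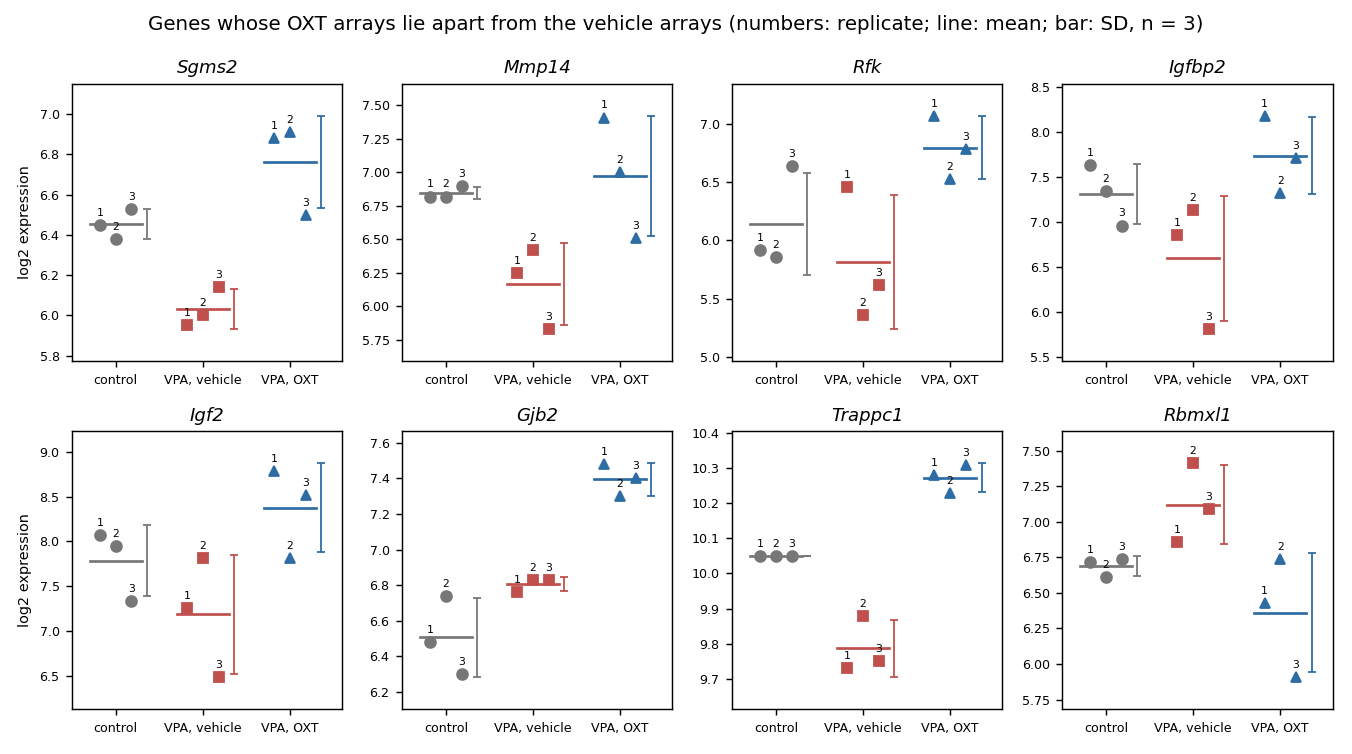
Log2 expression (y axis, separate scale for each gene) of 8 genes whose 3 OXT-treated arrays did not overlap with the 3 vehicle-treated arrays, drawn as points per rat numbered by replicate with group means and bars of 1 SD (n = 3 rats). Sgms2, Mmp14, Rfk, Igfbp2 and Igf2 were called in each fit that leaves out 1 VPA rat, the Trappc1 rats with OXT lie between 10.23 and 10.31, and Rbmxl1 is the gene called lower.

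The remaining genes called higher include genes of the meninges and of vitamin A and amino acid handling. Retsat encodes retinol saturase, an enzyme acting on vitamin A. Its levels were 9.56, 9.69 and 9.76 with OXT and 7.77, 9.08 and 9.54 with vehicle, so the vehicle-treated rats were spread widely while the OXT-treated rats were not. The difference was 0.87 (SE 0.37) and fell to 0.36 without vehicle-treated replicate 1. Slc6a20a, a transporter of proline, was at 8.37, 8.38 and 9.15 against 8.00, 8.36 and 7.40, a difference of 0.71 (SE 0.29). Both VPA groups were above the control range of 6.85 to 7.37 for this transporter. Anxa2, a membrane-binding annexin, was 0.73 higher (SE 0.32) with overlapping arrays and 0.38 higher without vehicle-treated replicate 3.

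Meninges are the connective tissue sheets around the brain, and their fibroblasts are known to make collagens and small leucine-rich proteoglycans. Of 29 measured markers of meninges and fibroblasts, 9 were higher with OXT at an unadjusted p under 0.05 and 0 were lower, against 1.95% and 1.12% of all genes, and the median difference was 0.34. This list too was chosen with earlier results of these data known, so its direction is not independent evidence. The mean level of the list was 6.65, 6.40 and 6.90 in OXT-treated rats 1, 2 and 3, 6.32, 6.50 and 6.14 in vehicle-treated rats and 6.19 to 6.39 in controls. Here replicate 3, not replicate 1, was the highest OXT-treated rat, in 22 of the 29 members. Without this rat 4 members were higher, against 2.17% of all genes in this fit, and the median was 0.14. The count was 3 without vehicle-treated replicate 1, 3 without vehicle-treated replicate 3 and 5 without OXT-treated replicate 1.

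Ogn, the proteoglycan osteoglycin, was the largest called difference of this list after Mmp14, at 9.85, 9.24 and 10.15 with OXT against 9.03, 9.37 and 8.51 with vehicle. The groups overlapped, and the difference was 0.78 (SE 0.32) and 0.57 without OXT-treated replicate 3. Col3a1, a fibrillar collagen, was 0.52 higher (SE 0.14) with no overlap, at 7.02, 7.08 and 7.36 against 6.74, 6.76 and 6.40. The proteoglycan genes Prelp and Dcn were each 0.54 higher (SE 0.17 and SE 0.20). Fmod and Lum, of the same family, were 0.64 and 0.43 higher at mean levels under 6.6. Among the other collagens, Col1a1 and Col1a2, differed by 0.37 and 0.54 and did not pass.

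Genes of vessel wall cells had few members past the test. Among 22 measured endothelial genes, 0 passed an unadjusted p of 0.05 in limma, with a median difference of 0.14. The arrays did not overlap in 3 of the 22, against 5.30% of all genes. Among 12 mural cell genes 1 was higher, the receptor gene Pdgfrb (0.25, SE 0.10), against 1.95% of all genes. The smooth muscle genes Myh11 and Tagln differed by 0.57 (SE 0.41) and 0.50 (SE 0.44) and were highest in OXT-treated replicate 3, at 8.36 and 9.23. That rat was also the highest of the OXT group in antigen presentation and interferon response genes, whose mean was 6.14 compared with 5.80 in the other OXT-treated rats. In this list 3 of 20 genes were higher, against 1.95% of all genes. They were the class II genes RT1-Da and RT1-Db1 and the immunoproteasome gene Psmb8 (0.54, 0.27 and 0.53), each at a mean level under 6.6. Without OXT-treated replicate 3, 0 members of this list and of the mural cell list were higher at an unadjusted p under 0.05 in limma.

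Microglial genes, 18 in number, had 0 members at an unadjusted p under 0.05 in limma and a median of 0.08. Of 17 astrocyte genes, only the transcription factor gene Sox9 was higher (0.24, SE 0.08), against 1.95% of all genes, and the median was 0.10. Cilia genes of the ependyma, the lining of the ventricles next to the choroid plexus, had 0 of 28 members past the test in limma and a median of -0.01. Their mean level was 5.95, 5.33 and 5.34 in the OXT-treated rats against 5.55, 5.72 and 5.26 in the vehicle-treated rats, and the rats of both groups overlapped.

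**Figure D4:**
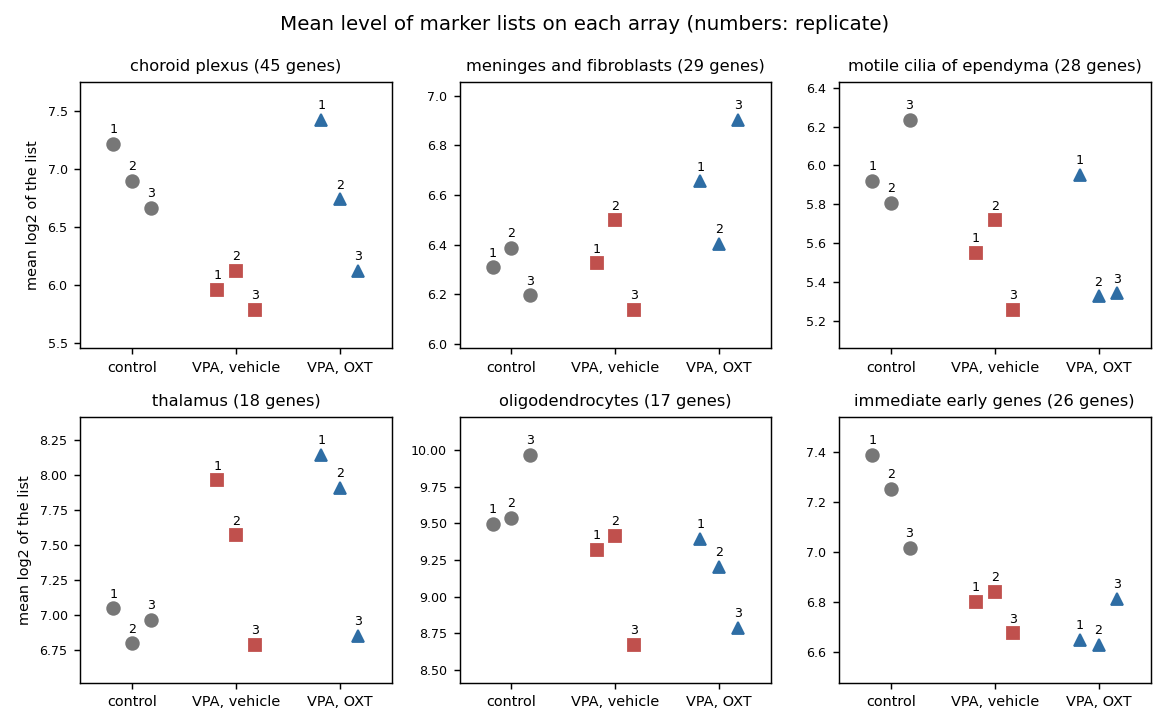
Mean log2 level of 6 marker lists on each array (y axis, separate scale for each list), with 1 point per rat numbered by replicate, for the controls and both VPA groups. The choroid plexus list falls from 7.42 to 6.12 between OXT-treated replicates 1 and 3, the list of meninges and fibroblasts is highest in OXT-treated replicate 3 at 6.90, and the thalamus list is lowest in replicate 3 of both VPA groups.

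Markers of tissue around the hippocampus differed between rats of 1 group more than between the groups. The mean level of 18 thalamus genes was 8.14, 7.91 and 6.85 in OXT-treated rats 1, 2 and 3 and 7.96, 7.57 and 6.79 in vehicle-treated rats, against 6.80 to 7.05 in controls. None of the 18 passed an unadjusted p of 0.05 in limma. Tcf7l2, a transcription factor gene of thalamic neurons, was at 9.02, 8.84 and 6.23 with OXT and 8.83, 8.52 and 6.30 with vehicle. Slc17a6, the glutamate transporter gene of thalamic neurons, was at 9.37, 9.34 and 7.71 against 8.99, 8.86 and 7.67. Replicate 3 was thus lowest in both groups. The 17 oligodendrocyte genes had means of 9.39, 9.20 and 8.79 with OXT and 9.32, 9.42 and 8.67 with vehicle, with 0 members past the test in limma. The part of these tissue markers in the differences of other genes was not tested. Without OXT-treated replicate 3, 3 of the 18 thalamus genes were higher, against 2.17% of all genes in this fit, and the median of the list was 0.52.

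Rbmxl1 was the only gene called lower with OXT. It belongs to the RBMX family of RNA-binding proteins. Its levels were 6.43, 6.74 and 5.91 with OXT and 6.86, 7.41 and 7.09 with vehicle, with 6.61 to 6.74 in controls. No OXT-treated rat reached a vehicle-treated rat. The difference was -0.76 (SE 0.21), and the gene was called in 5 of the 6 fits that leave out a rat. Copies of this gene family are similar in sequence, and whether the probes read other copies was not tested.

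Below the threshold of 1.5-fold, the 33 genes over 6.6 that were lower at an unadjusted p under 0.05 had differences of 0.17 to 0.57 in size. The arrays did not overlap in 26 of them, against 5.30% of all genes in either direction. These 33 were picked by p on the same arrays, so a lack of overlap is largely built in. Slc19a3, a thiamine transporter, was the closest to the threshold, at 6.14, 6.24 and 6.36 with OXT against 6.91, 6.96 and 6.59 with vehicle. The difference was -0.57 (SE 0.16), and its control range of 5.77 to 6.36 held the OXT-treated rats. It was the only lower gene of 15 vitamin transporters, in which the folate receptor genes Folr1 and Folr2 were higher, against 1.12% lower and 1.95% higher among all genes. The interneuron peptide gene Sst, encoding somatostatin, was at 8.56, 8.48 and 8.77 against 8.80, 8.91 and 9.17, a difference of -0.36 (SE 0.12). All OXT-treated rats were below all vehicle-treated rats for Sst, though replicate 3 only slightly. Sst was the only one of 17 measured interneuron genes with an unadjusted p under 0.05 in limma. Of the 17, 8 had a difference above 0, and the median of the list was -0.05.

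Grik1, a kainate receptor subunit, differed by -0.28 (SE 0.10) and the mitochondrial gene COX2 of cytochrome oxidase by -0.20 (SE 0.07), both without overlap. The splicing factor gene Khdrbs2 differed by -0.20 (SE 0.07), with all vehicle-treated rats between 7.33 and 7.36 and all OXT-treated rats between 7.14 and 7.16. Or1n1, an olfactory receptor gene, differed by -0.39 (SE 0.10), Tuba8, an alpha tubulin gene, by -0.41 (SE 0.15) and Mchr1, a receptor for the peptide melanin-concentrating hormone, by -0.32 (SE 0.11). These last 4 genes were chosen for mention after their values were seen.

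The genes of the OXT system itself differed little. The receptor gene Oxtr was at 6.23, 6.46 and 6.96 with OXT and 6.6, 6.80 and 6.53 with vehicle, a difference of -0.09 (SE 0.18), and controls were at 6.12 to 6.49. The peptide gene Oxt was at 6.19, 6.0 and 6.58 against 6.26, 5.95 and 5.75, a difference of 0.27 (SE 0.17). The groups overlapped for both. Of 9 measured genes of the OXT and vasopressin system and of 33 genes of OXT receptor signaling, 0 had an unadjusted p under 0.05 in limma, with medians of 0.07 and 0.03.

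Genes that neuronal activity induces were not called. Of 26 measured immediate early genes, 0 passed an unadjusted p of 0.05 in limma, and the median was -0.05. Fos was at 6.17, 6.13 and 6.15 with OXT and 6.23, 6.36 and 6.13 with vehicle, with 6.78 to 7.46 in controls. Arc was at 6.56, 6.63 and 7.11 against 7.11, 7.24 and 6.80, a difference of -0.28 (SE 0.30). Replicate 3 was the highest OXT-treated rat for Arc, Egr1 and Nr4a1, genes with differences of -0.28, -0.34 and -0.24. Bdnf, the neurotrophin gene of memory formation, differed by -0.08 (SE 0.09), and 0 of 10 genes of neurotrophins and their receptors passed the test in limma.

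Receptors, channels and synaptic genes were near the median of all genes. Between them, the lists of ionotropic and metabotropic glutamate receptors, GABA-A receptors, voltage-gated potassium channels and synaptic vesicle and scaffold genes hold 87 measured genes, and Grik1 was the only one with an unadjusted p under 0.05. Their medians lay between -0.03 and 0.03. None of 20 principal cell genes and of 19 genes of adult neurogenesis passed the test in limma, with a median of 0.03 in each list. Glucocorticoid-induced genes (18 measured), clock genes (17), heat shock genes (16), genes of cholesterol and fatty acid synthesis (16) and nuclear genes of the respiratory chain (34) each had 0 members past it in limma, with medians from -0.05 to 0.09. Without OXT-treated replicate 3, 3 glucocorticoid-induced genes were lower and 1 was higher, with a median of -0.13. In the same fit 2 clock genes were lower and 0 higher, with a median of -0.04. Of all genes, 1.49% were lower and 2.17% higher in it.

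Of the factors that the study discusses as regulators, the histone deacetylase gene Hdac1 was at 7.28, 7.38 and 7.12 with OXT and 7.46, 7.48 and 7.54 with vehicle, a difference of -0.23 (SE 0.11) that did not pass an unadjusted p of 0.05 in limma. Among 11 deacetylase genes only Hdac7 was higher (0.27, SE 0.12), at a level under 6.6, against 1.95% of all genes. Sfrp1, a secreted inhibitor of Wnt signals, was 0.57 higher (SE 0.20) at levels of 6.61, 6.27 and 6.81 with OXT and 5.80, 6.43 and 5.76 with vehicle. It was not called, since the difference was 1.48-fold and its mean was under 6.6 in both VPA groups, while the control mean was 6.61. The groups overlapped. Sfrp1 and Sostdc1 were the 2 of 29 genes of Wnt inhibitors and targets that were higher, against 1.95% of all genes, and the median of the list was 0.07. The retinoic acid receptor gene Rarb differed by 0.11 (SE 0.10), and 0 of 18 genes of the retinoic acid pathway passed the test in limma.

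In 23 of the 38 lists no member had an unadjusted p under 0.05, and 30 lists had a median between -0.1 and 0.1. The choroid plexus and the meninges held the highest medians, 0.56 and 0.34.

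**Figure D5:**
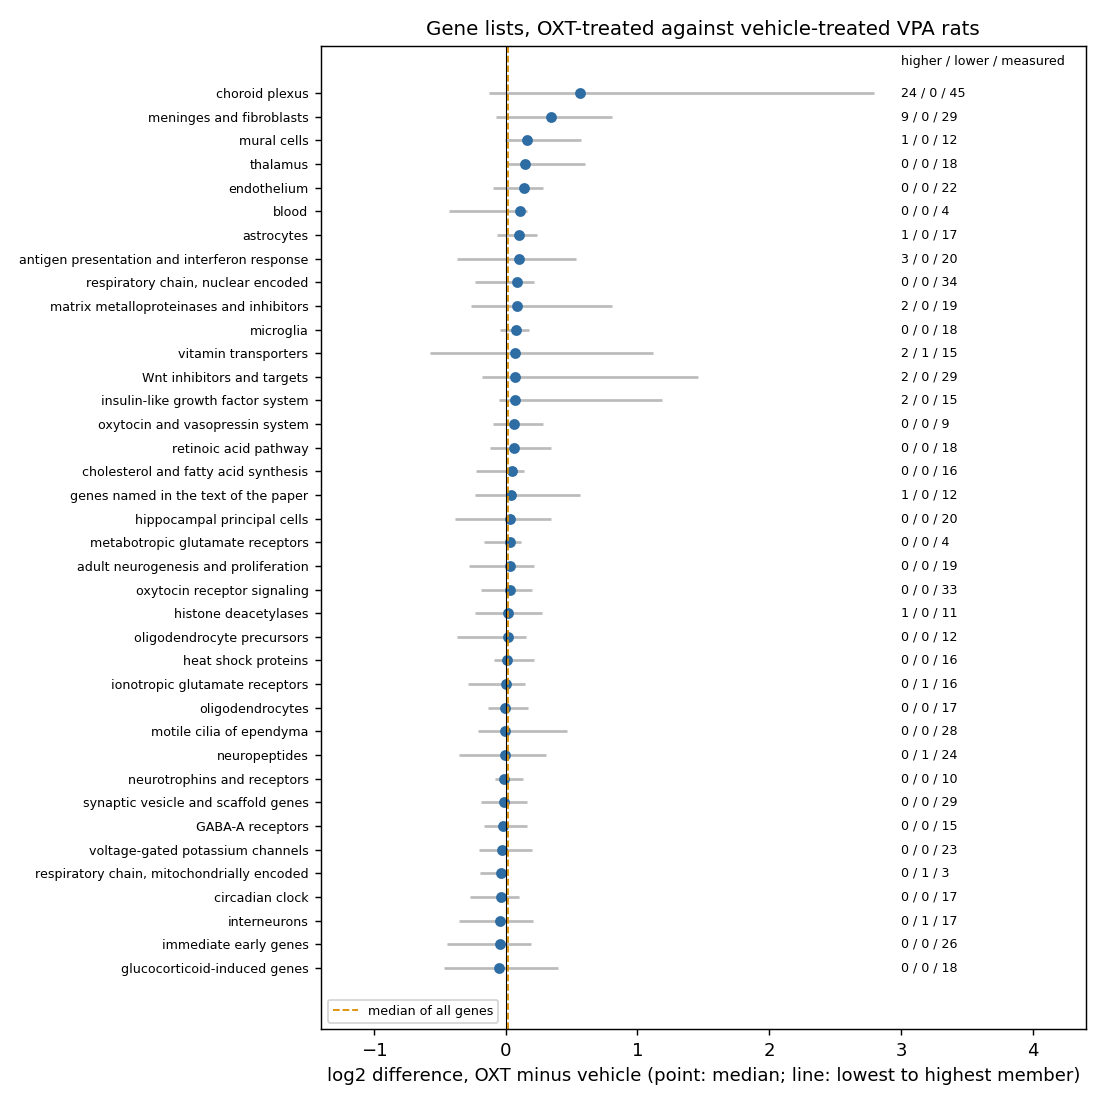
Median log2 difference of each of 38 gene lists (points, x axis) with a line from the lowest to the highest member, for OXT-treated against vehicle-treated VPA rats; the numbers at the right give members higher, members lower and members measured at an unadjusted p under 0.05, and the dashed line is the median of all genes at 0.02. The choroid plexus list has the highest median, 0.56, followed by meninges and fibroblasts at 0.34.

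Probe sets without a gene symbol ran the other way. Of 11343 such probe sets, 41 were called lower (0.361%) and 0 were called higher in limma, against 0.145% and 0.0723% of all probe sets. At an unadjusted p under 0.05 in limma, 618 were lower (5.45%) and 191 higher (1.68%), against 2.81% and 1.86% of all probe sets. Over all probe sets above 6.6, with or without a symbol, 179 were lower (1.58%) and 141 higher (1.25%). The largest called difference among those without a symbol was -3.40. Probe sets without a symbol are unnamed in the annotation used here and are not described further.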

How the data were processed

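RNA of the dorsal hippocampus of 9 male rats was hybridized to Rat Gene 2.0 ST arrays, 1 array per rat, in 3 groups of 3. The values are log2 expression levels that the authors deposited in 1 table after their own array normalization and summarization. The study's methods name Transcriptome Analysis Console (version 4.0), and the submitters' notes name Affymetrix Expression Console without a version. The summarization method, genome build and annotation are not given in the sources used here. The values, between 0.9 and 13.77 and rounded to 2 decimals, were used without further normalization. Precision is limited by the 3 arrays per group.

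A single gene symbol was listed for 18511 of the 30429 probe sets, several for 575, which were left unnamed, and no symbol for 11343. In 291 genes with more than 1 probe set the one with the highest mean over 9 arrays was used. Gene IDs of 18394 probe sets matched the RefSeq table of GRCr8, used for names, and promoters came from a RefSeq table of the same assembly.

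Group means were modelled in limma 3.58.1 under R 4.3.3 over all probe sets on 9 arrays, which share 1 estimate of the spread (prior degrees of freedom 2.723), and adjusted p values follow Benjamini-Hochberg over all probe sets. The fold threshold was 0.585 on the log2 scale. Gene lists (38, with 684 of 795 genes measured) were described by counts and medians and were not tested. The comparison, lists and members were chosen with earlier results of these data known.

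Genes named in the text are the 15 with the largest differences among those called in each direction, those called in every fit that leaves out 1 VPA array without overlap, the members with the smallest p of each list (4 at most), the genes of the paper's text, the first 6 choroid plexus markers and the 10 genes over 6.6 with the widest SD with OXT. Others, including Ogn, Anxa2, Slc6a20a, Gjb2, Ctxn2, Trappc1, Dab2, Ppp1r1b, Fau, Kcne2, Lum, Fmod, Enpp2, Tagln, Slc17a6, Fos, Arc and Nr4a1, were chosen after their values were seen.

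Alternatives were quantile normalization, median centring, only the VPA arrays, trend and robust moderation, no moderation, only probe sets over 6.6, 1 probe set per gene, array weights, the replicate number as a block, a choroid plexus covariate, other fold and level criteria (the level over all 3 groups was added after seeing the data), and leaving out each VPA array.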

Additional observations from a re-analysis of the deposited data

How the results depend on the processing

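With a replicate block 21 genes were called higher and 2 lower, against 22 and 1. The numbers did not pair the rats: same-numbered deviations of both VPA groups correlated at 0.101, -0.0465 and 0.00978, and 2 of 6 arrays correlated best with their own number. The count of genes called higher was 8 without moderation, 13 with the choroid plexus covariate, 9 without the choroid plexus list (chosen after seeing the data), 118 with no fold criterion, 11 at 2-fold and 49 with no level criterion. The count called lower was 2 with median centring, 2 with trend and robust moderation, 6 with array weights, 9 with the covariate, 34 with no fold criterion, 0 at 2-fold and 33 with no level criterion. Leaving out 1 VPA array gave 10 to 47 genes called higher, 1 to 7 called lower, 9 to 29 choroid plexus members and 3 to 13 meninges members higher at an unadjusted p under 0.05, and 0 to 1 probe sets at an adjusted p under 0.05. Of the 23 called genes, 17 were called without OXT-treated replicate 3, 7 without OXT-treated replicate 1 and 9 without moderation.

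The 56 genes followed had an unadjusted p under 0.05 in limma with all arrays, except Ttr, Enpp2 and Mfrp. This choice largely fixed in advance that their direction would be kept. Without OXT-treated replicate 1, 23 of the 56 no longer had such a p. Otx2 and Tcf7l2, which were not followed, changed direction in at least 1 fit that leaves out a VPA rat. The 56 genes kept their direction under the alternatives except the covariate, which turned 9: Clic6 to -0.170, Kl to -0.00800, F5 to -0.175, Mmp2 to -0.0154, Mdk to -0.0216, Sostdc1 to -0.0347, Ttr to -0.964, Enpp2 to -0.760 and Mfrp to -0.561. The score is built from most of these genes. With 3 rats a group and their litters unknown, differences of the size seen here could not be told from the spread after adjustment, and the 2 arrays with the lowest weights, replicate 3 of both VPA groups, entered every count except where 1 of them was left out.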
